A study of Mus musculus with 12 samples.

Results

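The 10 genes that mark the endothelium of the liver, Pecam1, Cdh5, Stab1, Stab2, Lyve1, Kdr, Eng, Vwf, Tek and Nos3, were followed across Cyp1b1 null and wild-type mouse livers on a high-fat or a low-fat diet. They were chosen as textbook markers of sinusoidal and vascular endothelium, because Cyp1b1 is known to act in vascular cells, and earlier results of these data were known when they were chosen. The array carried 18 probes for them among 41174 probes for 27975 genes, and all 10 were among the 14911 genes that were bright enough to be tested. None of the 10 passed the test in any comparison of genotype or diet, at a threshold of 0.05 on limma's adjusted p. For 8 of them the 4 group means lay within less than the SD between arrays of 1 group. The median of the markers was lowest on the 4 arrays of scan 2, and 6 of the 10 were highest on 1 wild-type array. The shares of all genes with these patterns were not counted.

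RNA from livers of male mice was hybridised to 12 two-colour Agilent arrays, 3 in each of 4 groups: Cyp1b1 null on the high-fat diet, Cyp1b1 null on the low-fat diet, wild-type on the high-fat diet and wild-type on the low-fat diet. The wild-type strain is labelled C57BL6/J, and the background of the null mice and the making of the null allele are not given in the sources used here. All mice were weaned at 3 weeks of age onto food with 60% or 10% fat and were killed at 14 weeks. Every sample carried Cy3, and the same pool of livers from wild-type mice on low fat carried Cy5 on every array, without a dye swap. A value is the log2 ratio of the sample to this reference pool, and a difference of 1 is a doubling. Each array is described as 3 pooled samples. Whether every replicate was a pool of its own animals is not stated, so p-values measure the spread between arrays, which may be technical.

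Sinusoidal endothelial cells line the capillaries of the liver, are perforated by open pores and take up waste from the blood through scavenger receptors such as the stabilins. The endothelium of portal and central vessels is continuous, with tight junctions and stores of von Willebrand factor. Cyp1b1 encodes a cytochrome P450 that oxidises fatty acids, steroids and retinoids and is found in endothelial cells and pericytes.

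The sequences of 3 probes are shown, 5′ to 3′, because what such an array measures is labelled material that pairs with a stretch of 60 bases. The Pecam1 and Nos3 probes were each printed on 10 spots per array, which gives their ratios an error within the array. The Vwf probe shown is the dimmer of the 2 Vwf probes that were measured, and it gives a second reading of the gene with the widest range.
Pecam1 A_51_P400868: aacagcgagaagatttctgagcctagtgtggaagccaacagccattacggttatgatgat
Nos3 A_51_P139651: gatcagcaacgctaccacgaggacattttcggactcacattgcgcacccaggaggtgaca
Vwf A_51_P103406: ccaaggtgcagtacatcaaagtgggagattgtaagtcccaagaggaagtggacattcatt

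The arrays were read in 3 scans, and 1 array of each of the 4 groups was read in scan 2. Scan 3 held 2 wild-type arrays, 1 of each diet, and no null array. Null low-fat arrays 2 and 3, read in scan 1, were the only arrays on slide 1. Genotype at low fat and diet in null livers are therefore partly confounded with slide, and a scan block does not remove this. The Cyp1b1 probe gave log2 ratios between 0.65 and 1.68 on the arrays labelled null and between -1.11 and 0.15 on the wild-type arrays. No label says which exons the null allele lacks, so this probe may lie outside them and does not check the labels. Directions between genotypes rest on the labels throughout. The source label names liver hepatocytes, and all 10 hepatocyte markers were measured, but so were the 10 endothelial markers, 12 of 12 Kupffer cell and macrophage markers and 11 of 11 stellate cell and fibroblast markers. In such RNA, fewer endothelial cells and less of a transcript per endothelial cell cannot be told apart.

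Among the scavenger receptors of the sinusoid, Stab2, the endocytic receptor that clears hyaluronan from the blood, was read by 1 probe (A_51_P402846). At high fat its log2 ratios were 0.68, -0.26 and 0.63 on the Cyp1b1 null arrays, against 0.18, -0.38 and 0.38 on the wild-type arrays. At low fat they were -0.54, 0.49 and 0.31 on the null arrays, against 0.55, -0.59 and -0.04 on the wild-type arrays. In each group the low value was that of the scan 2 array, and the groups overlapped. The genotype difference was 0.29 (SE 0.37, 95% interval -0.53 to 1.11) at high fat and 0.12 (SE 0.37, 95% interval -0.71 to 0.94) at low fat. Neither passed limma's test, with adjusted p = 1 and 0.972. Stab1 encodes the related scavenger receptor stabilin-1, which macrophages also make. The null high-fat arrays gave log2 ratios of 0.43, 0.04 and 0.92, against 0.27, -0.24 and 0.66 on wild-type arrays of that diet. Low-fat arrays gave 0.26, 0.63 and 0.04 for null livers, against 0.60, -0.03 and 0.29 for wild-type livers. Stab1 was above the reference pool on 10 of the 12 arrays and reached its highest value, 0.92, on null high-fat array 3. Its genotype difference was 0.23 (SE 0.29, 95% interval -0.40 to 0.86) at high fat and 0.02 (SE 0.29, 95% interval -0.61 to 0.65) at low fat, with adjusted p = 1 and 0.996 by limma.

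Lyve1, a hyaluronan receptor of sinusoidal and lymphatic endothelium, was below the reference pool on all 12 arrays on its brighter probe (A_52_P686785) and on 11 of 12 on its second (A_51_P155052). The brighter probe stands for the gene. On high-fat arrays Lyve1 stood at log2 ratios of -0.93, -2.09 and -1.89 in null livers, against -2.15, -1.29 and -0.80 in wild-type livers. On low-fat arrays it stood at -1.31, -2.13 and -1.24 in null livers, against -0.55, -2.24 and -0.89 in wild-type livers. The 4 groups overlapped, and each held values far apart. The wild-type low-fat arrays, whose RNA is of the kind in the pool, averaged -1.23 ± 0.89 on that probe and -0.35 ± 0.60 on the second, where wild-type low-fat array 1 stood at 0.23 (SD, n = 3). With no dye swap, a Cy3 to Cy5 bias of a probe and a lower level than the pool cannot be told apart. A dye bias equal on all arrays cancels between groups. There the Lyve1 difference of null from wild-type was -0.22 (SE 0.49, 95% interval -1.29 to 0.85) at high fat and -0.33 (SE 0.49, 95% interval -1.40 to 0.75) at low fat, both with intervals that include a halving. Limma gave adjusted p = 1 and 0.944. For high over low fat in wild-type livers the authors' deposited table gives a Lyve1 log2 ratio of -0.91, from Agilent's processed signals, where normexp and loess gave -0.19 (SE 0.49, 95% interval -1.26 to 0.89).

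**Figure D1:**
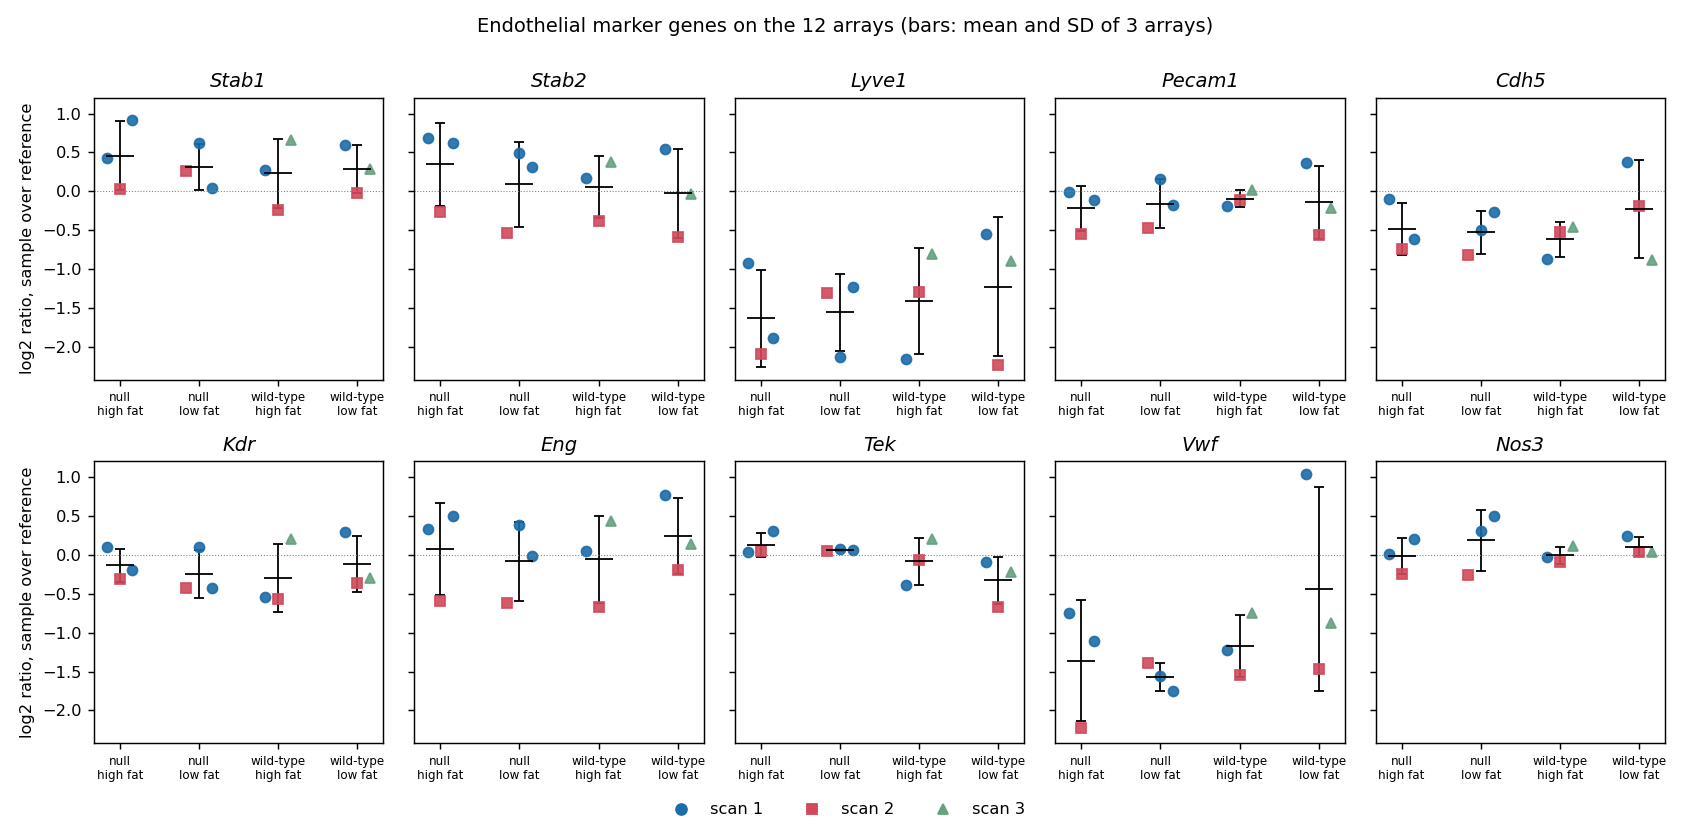
Log2 ratio of sample over the reference pool (vertical axis) for the 10 endothelial markers on the 12 arrays, by group, with the mean and SD of 3 arrays as bars and the scan of each array as its symbol. The groups overlap for every marker between genotypes and diets except Tek at low fat, where the null arrays sit between 0.05 and 0.07 and the wild-type arrays between -0.67 and -0.09.

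Of the junction and adhesion genes, Pecam1 encodes the adhesion molecule CD31 of all endothelium, platelets and many leukocytes. Pecam1 gave log2 ratios of -0.0051, -0.55 and -0.11 in null high-fat livers, against -0.19, -0.11 and 0.02 in wild-type high-fat livers. In null low-fat livers it gave -0.47, 0.16 and -0.18, against 0.36, -0.57 and -0.22 in wild-type low-fat livers. The group means lay within 0.13 of each other, against a pooled SD between arrays of 0.32. Null livers differed from wild-type livers by -0.13 (SE 0.25, 95% interval -0.67 to 0.42) at high fat and -0.02 (SE 0.25, 95% interval -0.57 to 0.53) at low fat (limma adjusted p = 1 and 0.995). The 10 spots of the probe had a median SD of 0.15 within an array, below that spread between arrays.

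Cdh5 encodes VE-cadherin, the cadherin of endothelial adherens junctions. At high fat its log2 ratios were -0.10, -0.74 and -0.61 on the Cyp1b1 null arrays, against -0.88, -0.52 and -0.46 on the wild-type arrays. At low fat they were -0.82, -0.50 and -0.26 on the null arrays, against 0.38, -0.19 and -0.88 on the wild-type arrays. Only wild-type low-fat array 1, at 0.38, was above the pool. Null livers differed from wild-type livers by 0.13 (SE 0.30, 95% interval -0.52 to 0.79) at high fat and -0.29 (SE 0.30, 95% interval -0.95 to 0.36) at low fat, and limma's adjusted p was 1 and 0.902. The second Cdh5 probe (A_51_P309056) put all 4 groups higher. On that probe the null arrays at high fat gave 0.10, -0.20 and 0.41, against 0.10, -0.07 and 0.45 on wild-type arrays, and at low fat the null arrays gave -0.12, 0.46 and 0.06, against 0.64, -0.58 and 0.22 on wild-type arrays. Over the 12 arrays the 2 probes had Pearson's r = 0.23 and Spearman's rho = 0.16, so the order of arrays for Cdh5 depended on the probe.

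Of the receptors for vascular growth factors, Kdr encodes VEGF receptor 2. The null high-fat arrays gave log2 ratios of 0.10, -0.30 and -0.20, against -0.54, -0.56 and 0.21 on wild-type arrays of that diet. Low-fat arrays gave -0.43, 0.11 and -0.42 for null livers, against 0.30, -0.36 and -0.29 for wild-type livers. The groups overlapped in both diets. Null livers differed from wild-type livers in Kdr by 0.16 (SE 0.26, 95% interval -0.41 to 0.73) at high fat and -0.13 (SE 0.26, 95% interval -0.70 to 0.44) at low fat (limma adjusted p = 1 and 0.958). Kdr was printed on 10 spots, with a median SD of 0.25 between spots and a highest SD of 0.66 on wild-type low-fat array 1.

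Eng encodes endoglin, a co-receptor for ligands of the TGF-beta and BMP family on proliferating and sinusoidal endothelium. On high-fat arrays Eng stood at log2 ratios of 0.33, -0.59 and 0.50 in null livers, against 0.05, -0.67 and 0.44 in wild-type livers. On low-fat arrays it stood at -0.62, 0.39 and -0.01 in null livers, against 0.77, -0.19 and 0.15 in wild-type livers. The 4 arrays of scan 2 gave the 4 lowest Eng values of the 12. The genotype difference in Eng was 0.13 (SE 0.39, 95% interval -0.72 to 0.99) at high fat and -0.32 (SE 0.39, 95% interval -1.18 to 0.53) at low fat, with adjusted p = 1 and 0.926 by limma.

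Tek, the angiopoietin receptor Tie2, was the marker whose group means stood farthest apart for their spread. Tek gave log2 ratios of 0.03, 0.05 and 0.31 in null high-fat livers, against -0.39, -0.06 and 0.20 in wild-type high-fat livers. In null low-fat livers it gave 0.05, 0.07 and 0.07, against -0.09, -0.67 and -0.22 in wild-type low-fat livers. At low fat every null array lay above every wild-type array, and the 3 null arrays lay between 0.05 and 0.07. Such a separation, with the null arrays higher, was seen for 4.81% of all genes in that comparison. The difference was 0.39 (SE 0.19, 95% interval -0.04 to 0.81) at low fat and 0.21 (SE 0.19, 95% interval -0.21 to 0.64) at high fat, and limma's unadjusted p of 0.0688 at low fat became an adjusted p of 0.723. With scan as a block the low-fat difference was 0.47 (SE 0.19, 95% interval 0.06 to 0.89), and without wild-type low-fat array 1 it was 0.51 (SE 0.21, 95% interval 0.05 to 0.96). It was smaller, 0.22, without wild-type low-fat array 2. None of these passed limma's test over all genes, with adjusted p = 0.334, 0.434 and 0.73. Within scan 1 the difference was 0.16 and within scan 2 it was 0.72, values without a test. In scan 1 the null and the wild-type low-fat arrays lay on different slides. The other Tek probe was well above background on 1 array and gives no second reading.

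Vwf, which encodes the clotting protein von Willebrand factor of large-vessel endothelium and platelets, had the widest range of the 10 markers, 3.27 on the log2 scale. At high fat its log2 ratios were -0.74, -2.23 and -1.10 on the Cyp1b1 null arrays, against -1.23, -1.54 and -0.74 on the wild-type arrays. At low fat they were -1.40, -1.56 and -1.75 on the null arrays, against 1.04, -1.47 and -0.87 on the wild-type arrays. Vwf was below the pool on 11 of 12 arrays, and the exception was wild-type low-fat array 1, at 1.04, with the next highest array at -0.74. The low-fat difference of null from wild-type was -1.13 (SE 0.56, 95% interval -2.36 to 0.10), a ratio of null over wild-type between 0.194 and 1.07. Limma's adjusted p was 0.723. Without wild-type low-fat array 1 the difference was -0.40 (SE 0.40, 95% interval -1.28 to 0.49), and without wild-type low-fat array 2 it was -1.65. With scan as a block it was -1.29 (SE 0.51, 95% interval -2.42 to -0.15), with adjusted p = 0.335 by limma. At high fat the genotype difference was -0.19 (SE 0.56, 95% interval -1.42 to 1.04), with adjusted p = 1.

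The second Vwf probe, whose sequence is given above, followed the first across the 12 arrays with r = 0.85 and rho = 0.57. On it the null low-fat arrays gave -1.74, -0.70 and -1.44, against 0.58, -0.91 and -0.90 on the wild-type low-fat arrays. Wild-type low-fat array 1 was thus the highest array on both probes. The second Lyve1 probe likewise followed the first, with r = 0.76 and rho = 0.74, but its ratios lay higher by a median of 0.97. For Stab1 the second probe was dim, well above background on 9 of 12 arrays, and had r = -0.23 and rho = -0.05 with the first.

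**Figure D2:**
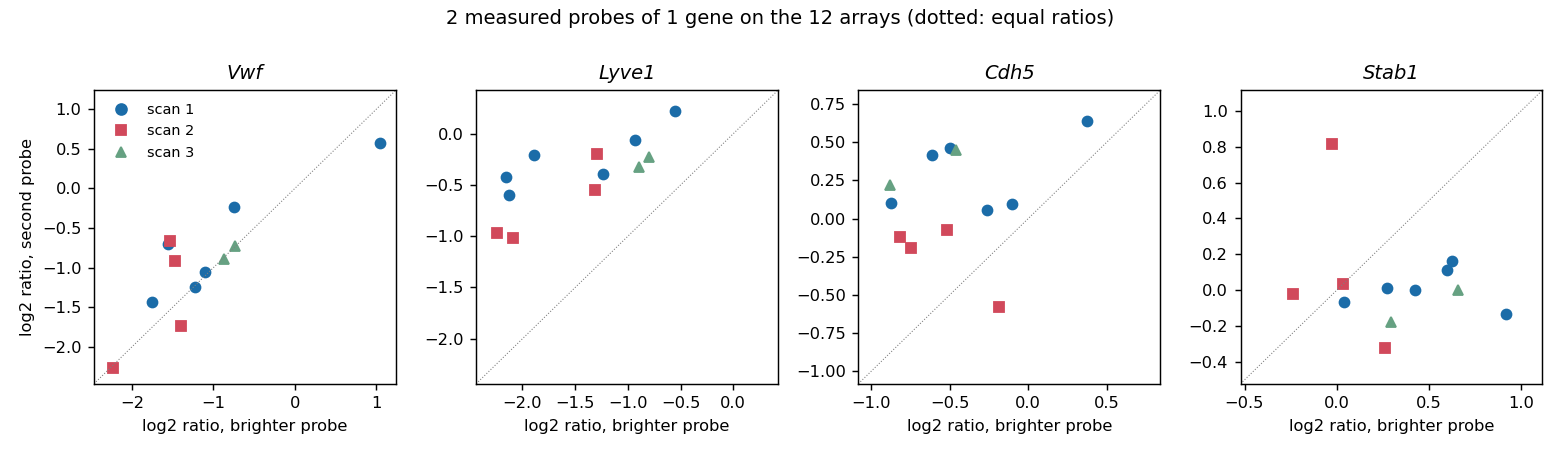
Log2 ratio over the reference pool on the brighter probe (horizontal axis) and on the second measured probe (vertical axis) of Vwf, Lyve1, Cdh5 and Stab1, 1 point per array, with the scan as symbol and equal ratios as a dotted line. The 2 probes rise together for Vwf and Lyve1 (r = 0.85 and 0.76) and form no line for Cdh5 and Stab1 (r = 0.23 and -0.23).

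Nos3, which encodes the endothelial nitric oxide synthase, had the narrowest range of the 10 markers, 0.76. The null high-fat arrays gave log2 ratios of 0.01, -0.25 and 0.20, against -0.03, -0.09 and 0.12 on wild-type arrays of that diet. Low-fat arrays gave -0.25, 0.31 and 0.51 for null livers, against 0.25, 0.04 and 0.04 for wild-type livers. The highest and the lowest value, 0.51 and -0.25, both came from the null low-fat group. Null livers differed from wild-type livers in Nos3 by -0.0082 (SE 0.20, 95% interval -0.45 to 0.43) at high fat and 0.08 (SE 0.20, 95% interval -0.36 to 0.52) at low fat (limma adjusted p = 1 and 0.969). The 10 spots of the Nos3 probe shown above had a median SD of 0.16.

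Counted together, 0 of 10 markers passed limma's test for genotype at high fat, where 0.0134% of all genes did, and 0 of 10 passed at low fat, where 0.0201% did. With so few calls over all genes, a count of 0 among 10 markers is close to the background. At an unadjusted p under 0.05 there were also 0 of 10 in both, beside 2.58% of all genes at high fat and 7.2% at low fat. With scan as a block that count was 0 of 10 at high fat, beside 4.32% of all genes, and 2 of 10 at low fat, Tek and Vwf, beside 12.8%. The median difference of the 10 markers was 0.13 at high fat and -0.07 at low fat, and that of all genes was 0.0022 and -0.0055. Both directions turned when single arrays were left out. The median then ran from -0.04 to 0.28 at high fat and from -0.24 to 0.11 at low fat, where 0.11 was the value without wild-type low-fat array 1. Centring each array on its median in place of loess gave 0.28 at low fat and turned 5 of the 10 markers to positive there, Pecam1 (0.08), Cdh5 (0.15), Lyve1 (0.13), Kdr (0.40) and Eng (0.17). Arrays of the 2 genotypes did not overlap for 0 of 10 markers at high fat, where they did not for 7.74% of all genes, and for 1 of 10, Tek, at low fat, where they did not for 9.33%. All 20 intervals included 0. They lay between -1 and 1 for 7 markers at high fat, all but Stab2, Lyve1 and Vwf, and for 7 at low fat, all but Lyve1, Eng and Vwf. A p that misses the threshold does not show that the genotypes were alike, and for Vwf and Lyve1 a difference of more than 2-fold fits inside the interval.

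Diet was compared within each genotype. In null livers 0 of 10 markers passed between high and low fat, beside 0.00671% of all genes, with limma's adjusted p at 1 for all of them. The differences ran from -0.20 for Nos3 to 0.26 for Stab2, with a median of 0.09 beside 0.02 for all genes. That median was -0.04 with median centring and ran from -0.05 to 0.18 with single arrays left out. Agilent's processed signals put Lyve1 outside that range, at -1.01 (limma adjusted p = 1.00), where normexp and loess gave -0.08. For Stab2 the interval was -0.56 to 1.08, and for Nos3 it was -0.64 to 0.24. In wild-type livers 0 of 10 passed, again beside 0.00671% of all genes, and limma's adjusted p was 1.00 for each. There the differences ran from -0.73 (SE 0.56, 95% interval -1.96 to 0.50) for Vwf to 0.24 (SE 0.19, 95% interval -0.18 to 0.67) for Tek, with a median of -0.15 beside 0.0064 for all genes. The median turned to 0.06 without wild-type low-fat array 1 and was 0.0064 with median centring. At an unadjusted p under 0.05 the markers counted 0 of 10 in both, against 1.91% of all genes in null and 4.02% in wild-type livers. Arrays of the 2 diets overlapped for all 10 markers in both genotypes, and did not for 4.83% of all genes in null and 7.24% in wild-type livers. Without wild-type low-fat array 1 the Vwf difference between wild-type diets was 0.0026 (SE 0.40, 95% interval -0.88 to 0.89). The intervals lay between -1 and 1 for 6 of the 10 markers in each genotype. The difference between the 2 genotype effects was tested as well, and 0 of 10 markers passed, beside 0% of all genes, with 0 of 10 at an unadjusted p under 0.05, beside 0.899% of all genes. That difference was largest for Vwf, at 0.94 (SE 0.79, 95% interval -0.79 to 2.68), and the median over markers was 0.19 beside 0.0099 over all genes. Without wild-type low-fat array 1 it was 0.21 for Vwf, Pecam1 then had the largest size, -0.36, and the median was -0.03. Median centring gave a median of -0.11.

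**Figure D3:**
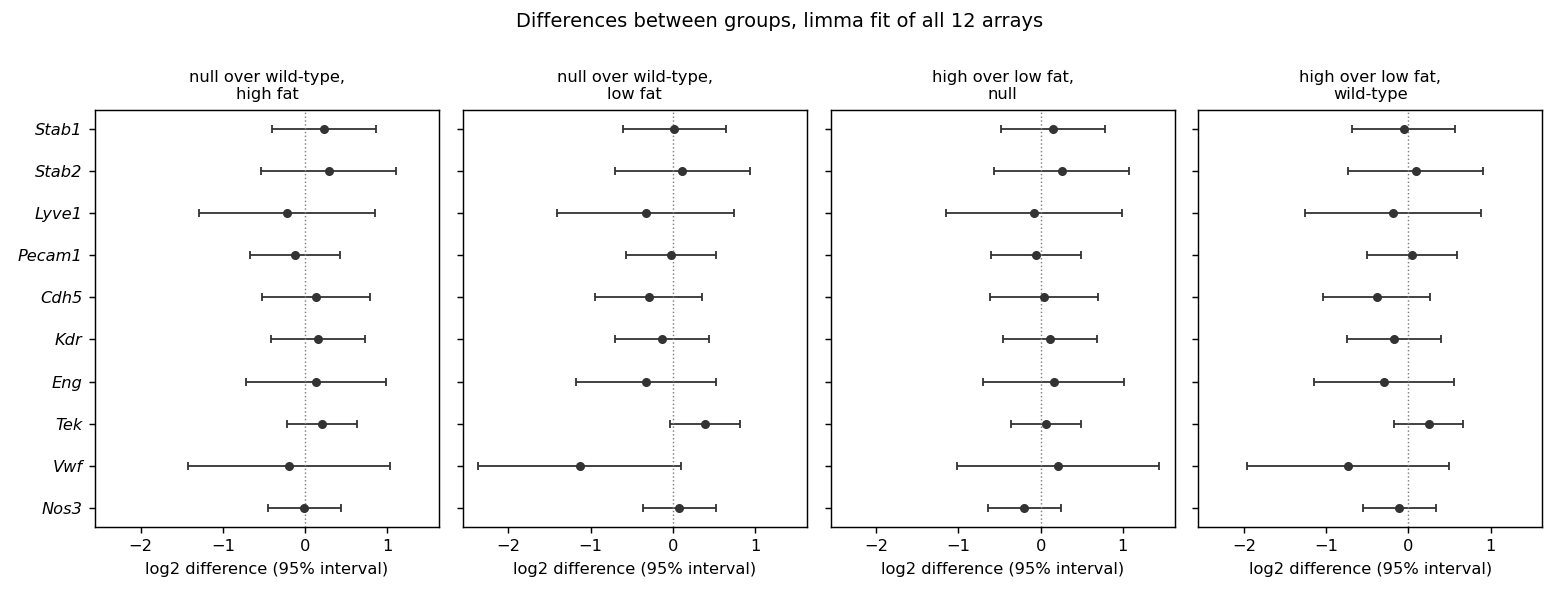
Log2 differences of the 10 markers with their 95% intervals from limma's fit of all 12 arrays, for null over wild-type at high fat and at low fat and for high over low fat in null and in wild-type livers. Every interval crosses 0, and Vwf and Lyve1 have the widest ones.

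For 8 of the 10 markers, all but Vwf and Tek, the 4 group means lay within a range smaller than the pooled SD between arrays of 1 group. The median log2 ratio of the 10 markers on an array was 0.02, -0.42 and 0.05 in the null high-fat group and -0.50, 0.14 and -0.10 in the null low-fat group. In the wild-type groups it was -0.29, -0.45 and 0.16 at high fat and 0.37, -0.46 and -0.22 at low fat. The 4 arrays of scan 2 held the 4 lowest medians, -0.50 to -0.42, and the 6 arrays of scan 1 lay between -0.29 and 0.37. Each group had 1 array in scan 2, and the mean of the scan 2 arrays was below that of the scan 1 arrays for all 10 markers. For Stab2 these means were -0.44 in scan 2 and 0.47 in scan 1, and for Eng they were -0.52 and 0.34. For Stab2 and Eng, 2 of the 10 markers, every scan 2 array lay below every other array. The shares of all genes with these scan patterns were not counted, so they are not shown to be particular to the markers. All 4 arrays of scan 2 share 1 slide, so scan and slide cannot be told apart there.

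**Figure D4:**
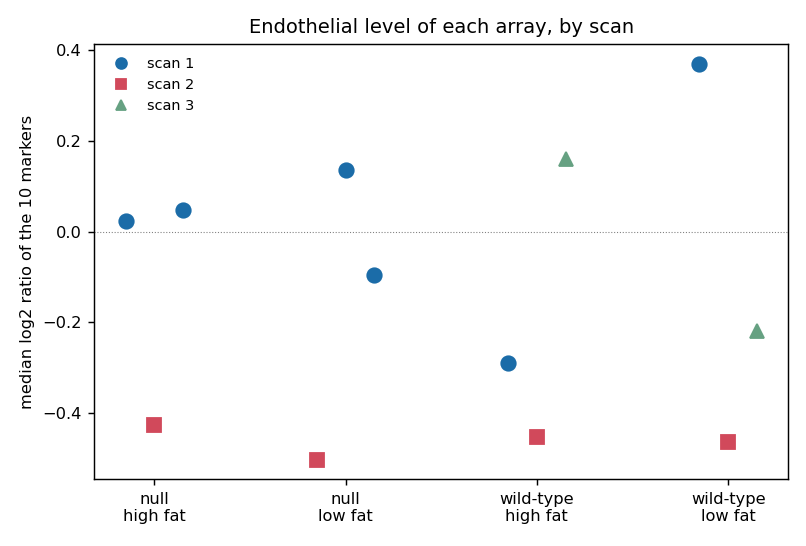
Median log2 ratio of the 10 endothelial markers on each array (vertical axis), by group, with the scan as symbol. The 4 scan 2 arrays, 1 in each group, sit lowest, between -0.50 and -0.42, and wild-type low-fat array 1 sits highest, at 0.37.

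Wild-type low-fat array 1 held the highest value of 6 of the 10 markers, Pecam1, Cdh5, Lyve1, Kdr, Eng and Vwf, and its marker median, 0.37, was the highest of the 12. Wild-type low-fat array 2 held the lowest value of 4 of them, Pecam1, Stab2, Lyve1 and Tek. The group against which both the low-fat genotype difference and the wild-type diet difference were taken thus contained both. How many of all genes were highest or lowest on these arrays was not counted. Without array 1 the low-fat genotype differences of Cdh5, Lyve1 and Eng were 0.0091, 0.0087 and -0.06, where they were -0.29, -0.33 and -0.32 with it. With scan as a block the median difference of the markers was 0.03 for genotype at high fat and -0.09 at low fat, and 0 of 10 passed in either comparison.

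Across the 12 arrays most markers moved together. Of the 45 pairs of markers, 43 had a positive Pearson's r, with a median of 0.51. The highest was 0.86, between Stab2 and Eng, and the lowest was -0.06, between Cdh5 and Tek. These arrays share a reference pool, and some share a scan, so the values describe the arrays and carry no test. Among genes outside the marker and pathway lists, those whose ratios ran closest to the mean of the 10 markers were Adgre5 (r = 0.95), Csrp1 (0.95), Kctd12 (0.93), Sdc3 (0.93), Jak1 (0.92), Raph1 (0.92), Ctsc (0.92) and Cmtm3 (0.92), over 12 arrays. Such likeness was not rare, since 327 of 14880 genes, 2.2%, had r over 0.8.

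Markers of other liver cells varied on the same arrays. The median ratio of the 12 Kupffer cell and macrophage markers was -0.92 to -0.07 on null high-fat arrays, -0.96 to -0.29 on null low-fat arrays, -1.11 to -0.24 on wild-type high-fat arrays and -1.48 to 0.13 on wild-type low-fat arrays. It was highest on wild-type low-fat array 1 and lowest on wild-type low-fat array 2, the arrays that held the most highest and the most lowest endothelial values. The 11 stellate cell and fibroblast markers had medians of -1.0 to -0.25 on null high-fat and -1.02 to -0.69 on null low-fat arrays. On wild-type arrays these were -0.68 to -0.06 at high fat and -0.46 to 0.21 at low fat. The 10 hepatocyte markers had medians of 0.15 to 0.37 on null high-fat and -0.25 to 0.45 on null low-fat arrays, and of -0.28 to 0.27 on wild-type high-fat and -0.47 to 0.31 on wild-type low-fat arrays. The 6 platelet markers, which bear on Vwf and Pecam1, ranged from -0.39 on null high-fat array 2 to 0.20 on wild-type low-fat array 1, the arrays with the lowest and the highest Vwf. The part of these cells in the endothelial values was not tested.

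**Figure D5:**
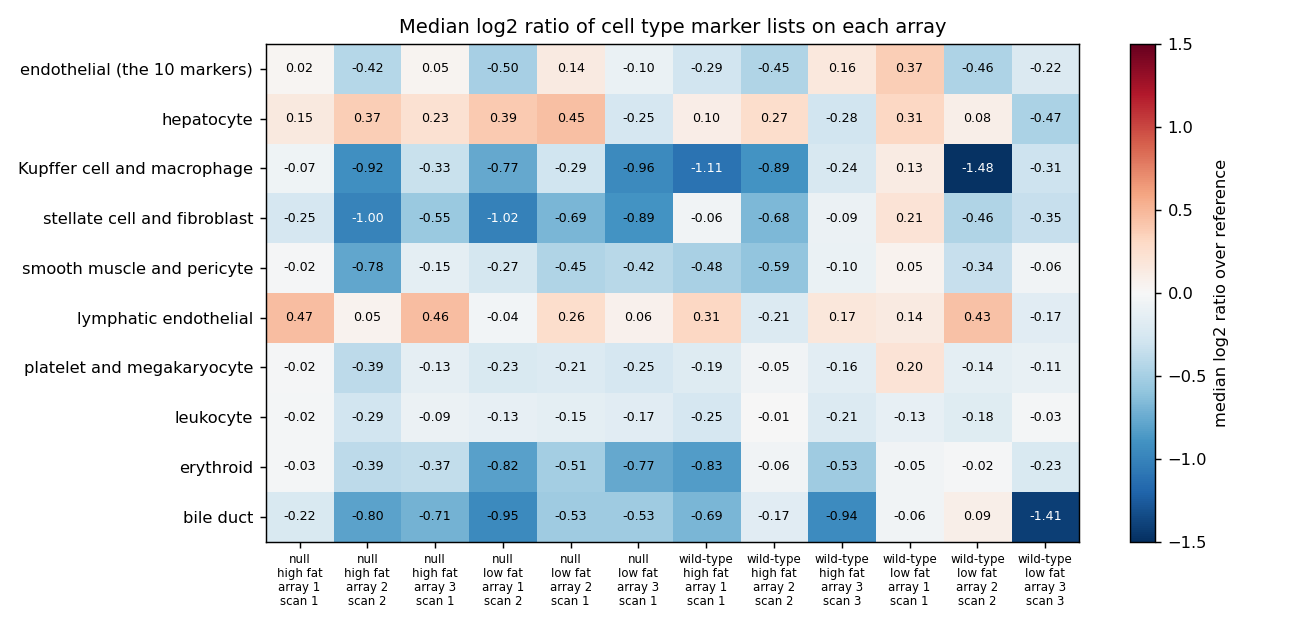
Median log2 ratio over the reference pool of the 10 endothelial markers and of marker lists for 9 other cell types on each of the 12 arrays, with colour and printed value giving the same number. The endothelial, macrophage and stellate cell rows are all highest on wild-type low-fat array 1, at 0.37, 0.13 and 0.21.

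The partners of the markers were followed through 9 lists of 118 genes, of which 107 were measured. None of the 107 passed limma's adjusted test in any comparison. At an unadjusted p under 0.05 there were 4 for genotype at high fat (3.74%, beside 2.58% of all genes) and 6 at low fat (5.61%, beside 7.2%). There were 2 for diet in null livers (1.87%, beside 1.91% of all genes), 3 for diet in wild-type livers (2.8%, beside 4.02%) and 0 for the difference of genotype effects (beside 0.899%). At low fat 40 of the 107 were higher in null livers (37.4%, beside 49.1% of all genes), with a median difference of -0.13 beside -0.0055. These were 58 of 107 and 0.02 without wild-type low-fat array 1. At high fat 42 of 107 were higher (39.3%, beside 50.6%), with a median of -0.03 beside 0.0022. The genes named next had the smallest p of their lists.

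Among the 9 VEGF ligands and receptors, the partners of Kdr, Nrp1 encodes neuropilin-1, a co-receptor that binds VEGF beside Kdr. On high-fat arrays Nrp1 stood at log2 ratios of 1.32, 1.96 and 2.46 in null livers, against 0.78, 0.30 and 1.04 in wild-type livers. On low-fat arrays it stood at 1.25, 1.62 and 1.47 in null livers, against 0.40, -0.37 and 0.07 in wild-type livers. In both diets every null array lay above every wild-type array. Taking each diet alone, 3.65% of all genes did so at high fat and 4.81% at low fat. The share that did so in both diets was not counted. The difference was 1.21 (SE 0.30) at high fat and 1.41 (SE 0.30) at low fat; limma's adjusted p was 0.656 and 0.2, and 0.0948 at low fat with scan as a block. Vegfa encodes the main ligand of Kdr. Vegfa gave log2 ratios of 0.24, -0.04 and 0.51 in null high-fat livers, against -0.23, -0.63 and -0.44 in wild-type high-fat livers. In null low-fat livers it gave -0.20, 0.22 and 0.25, against 0.24, -0.26 and -0.33 in wild-type low-fat livers. The null arrays lay above the wild-type arrays at high fat, by 0.67 (SE 0.21, limma adjusted p = 1), and overlapped with them at low fat. Most of the list lay the other way: 3 of the 9 were higher in null livers at high fat, with a median difference of -0.05, and 2 of the 9 at low fat, with a median of -0.25. The median level of the 9 genes at low fat was -0.18, -0.54 and -0.49 on null arrays, all below the 0.19, -0.15 and -0.09 on wild-type arrays. Medians of other lists, among them the stellate cell and the platelet markers, separated likewise at low fat. How often lists of genes do so was not counted. Without wild-type low-fat array 1, 5 of the 9 VEGF genes were higher in null livers at low fat and their median difference was 0.08.

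Of the 15 measured genes of nitric oxide control, the partners of Nos3, Ddah1 encodes the enzyme that breaks down asymmetric dimethylarginine, an inhibitor of nitric oxide synthases, and hepatocytes also make it. At high fat its log2 ratios were -0.54, -0.46 and -0.16 on the Cyp1b1 null arrays, against 0.80, 0.30 and 0.67 on the wild-type arrays. At low fat they were -2.25, -0.89 and -1.40 on the null arrays, against 0.24, 0.35 and -0.04 on the wild-type arrays. In both diets every null array lay below every wild-type array. Taking each diet alone, 4.09% of all genes did so at high fat and 4.52% at low fat. The share that did so in both diets was not counted. The difference was -0.97 (SE 0.29) at high fat and -1.69 (SE 0.29) at low fat, and limma's adjusted p was 1 and 0.0954, or 0.0595 at low fat with scan as a block. Klf4, a transcription factor induced by blood flow, differed by -0.88 (SE 0.36) at low fat with overlapping arrays (limma adjusted p = 0.628). Over the 15 genes the median difference was -0.04 at high fat and 0.06 at low fat, with 6 and 8 of them higher in null livers.

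Of the 9 measured haemostasis genes, which share the clotting role of Vwf, F2r encodes the thrombin receptor PAR1. The null high-fat arrays gave log2 ratios of 1.16, 0.79 and 1.59, against 0.31, -0.51 and -0.12 on wild-type arrays of that diet. Low-fat arrays gave 1.13, 0.97 and 0.99 for null livers, against 0.99, -0.46 and 0.07 for wild-type livers. The null arrays lay above the wild-type arrays at high fat. Such a separation, with the null arrays higher, was seen for 3.65% of all genes in that comparison. At low fat the groups overlapped, with wild-type low-fat array 1 at 0.99 inside the null range. The difference was 1.28 (SE 0.34) at high fat and 0.83 (SE 0.34) at low fat, and limma's adjusted p was 0.859 and 0.649. Over the 9 genes the median difference was -0.11 at high fat and -0.16 at low fat, with 2 and 4 of them higher in null livers.

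The other lists named no gene past limma's test. In the list drawn up around Tek, Angptl4, an inhibitor of lipoprotein lipase, differed by -1.55 between genotypes at low fat (limma adjusted p = 0.706). Without wild-type low-fat array 1 it differed by -0.81. Ptprb, the phosphatase that acts on Tek, differed by -0.33 between wild-type diets. For the signalling partners of Eng, Id3 and Tgfbr2 differed by -0.79 and -0.89 between high-fat and low-fat wild-type livers (limma adjusted p = 1.00 for both). Without wild-type low-fat array 1 the Tgfbr2 difference was -0.43. Of the junction and adhesion genes, the leukocyte ligand Icam1 differed by -1.43 between wild-type diets and by -0.87 without that array, and Cldn5, a tight junction claudin, differed by 0.57 between genotypes at high fat. Among 15 other sinusoidal genes, Maf, a transcription factor of sinusoidal identity, differed by -1.07 between genotypes at low fat (limma adjusted p = 0.62). Most of those 15 genes lay the other way, higher in null livers at low fat, with or without wild-type low-fat array 1. Plpp3, a lipid phosphatase of the same list, differed by 0.56 between null diets. Epas1, a hypoxia-inducible factor, differed by -0.81 between null diets, and Notch1 by -0.43 between genotypes at low fat. Ecscr, a surface protein of endothelial cells, differed by -0.86 between wild-type diets and by -0.22 without wild-type low-fat array 1, which stood at 1.61. Ramp2, part of the adrenomedullin receptor, differed by -0.44 between genotypes at low fat.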

How the data were processed

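RNA of mouse livers was measured on 12 two-colour Agilent arrays. The deposited intensity values are each spot's mean brightness and local background, per the file headers (Feature Extraction, spot analysis 9.1.3.1). The log10 ratios deposited beside them divide Cy5 by Cy3 after the software's own background subtraction and dye normalisation, per the file headers. The authors' deposited table of log2 ratios between group means names limma in the submitters' processing notes. With those log10 ratios turned to log2 of Cy3 over Cy5, it equals the differences of their group means on all 43379 spots within 1e-06.

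Here limma 3.58.1 in R 4.3.3 corrected the intensities by normexp (offset 50) and normalised them by loess within arrays, giving log2 of Cy3 over Cy5. Spots marked as not uniform (120) were left out, and spots of a probe were averaged. Probes counted as measured (21490 of 41174) if all 3 arrays of some group showed them well above background in Cy3, and the brightest such probe stood for its gene. Arrays had 18375 to 23439 probes at that brightness. Of the 18 marker probes 14 were measured, the used ones on all 12 arrays, with none saturated. The other 4, of Pecam1, Kdr, Vwf and Tek, reached it on 0 or 1 array. A single limma model with a mean for each group (residual degrees of freedom 8, prior 3.16) was tested over 14911 genes by Benjamini-Hochberg adjusted p at 0.05. Accessions gave the symbols of 24844 probes, 6045 had a current and 1810 an older symbol, and 8475 kept the files' name. The limma fit alone was tested on simulated log ratios, with independent noise and no scan or slide effect. Background correction, normalisation, the brightness filter and the choice of probes were not part of that test.

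The markers and gene lists were chosen with earlier results of these data known. Named genes were the 10 markers, Cyp1b1, the 8 genes most correlated with the markers' mean and, in each pathway list, genes past the threshold or, where none passed, the 2 with the smallest p in any comparison; 1 gene so named is not reported here. Replicate numbers did not pair the arrays: deviations of same-numbered arrays had a median r of -0.01 over 18 pairs, against 0.38 over 20 pairs of arrays in the same scan. Alternatives covered background, normalisation, filter, probe rule, scan, slide, replicate block and each array left out. With 3 arrays per group, precision is limited by their number.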

Additional observations from a re-analysis of the deposited data

How the results depend on the processing

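None of the 10 markers passed limma's test in any of the 5 comparisons under any of the alternatives that gave a test, and the lowest adjusted p among them was 0.295, for Vwf between genotypes at low fat without wild-type low-fat array 2. Of 144 median differences under alternatives, 141 moved by less than the spread between arrays, and 19 turned sign. The others were the genotype difference at low fat, 0.28 with median centring in place of loess, the diet difference in wild-type livers, -0.64 within scan 1, and the difference of genotype effects, 0.80 within scan 1. Within a scan the wild-type groups hold 1 array each, so these are values without a test. Of 1390 differences of single markers under alternatives, 64 moved by more than that spread and 153 turned sign. These counts include alternatives that left the differences exactly as they were. Among them were the filters on brightness, another variance setting of limma, fits of the compared groups alone and the replicate block. Leaving out an array of a group not compared also changed no difference. The counts therefore overstate how stable the differences were. Each group held every replicate number once, so the replicate block could not move the differences between groups. The median genotype difference was again 0.13 at high fat and -0.07 at low fat. Only the test could change, and 0 markers passed the threshold, with no other call changed. For Vwf at low fat the genotype difference was -2.70 within scan 1 and 0.07 within scan 2. Slide as a fixed block, chosen after seeing the data, gave -0.28. That value rests on null low-fat array 1, the only one of its group to share a slide with other groups.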
